A study of Mus musculus with 3 samples.

Results

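The complement genes described here are 29 mouse genes that encode complement factors, their receptors and their regulators. They were taken by symbol, all 29 had a row among the 31053 genes of each count matrix, and the rule uses no measured value. They fall into 9 genes of the classical and lectin start, 4 of C3 and the alternative pathway, 2 of the terminal pathway, 6 receptors and 8 regulators. The data came from single cells of dorsal skin of C57BL/6 mice aged 7 weeks, in 3 libraries of 3′ transcripts. The normal library was from control mice given glycerin, the IMQ library from mice given imiquimod, a Toll-like receptor agonist used to induce a psoriasis-like dermatitis, and the IMQ+celastrol library from mice given celastrol, a plant triterpenoid, and imiquimod. The study asked how celastrol acts on psoriasis-like skin. Each group was 1 library, and whether animals were pooled is not given in the sources used here, so an effect of treatment cannot be told apart from a difference between libraries, and no test was made.

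Complement is a cascade of plasma and tissue proteins whose pathways meet at the cleavage of C3. The classical pathway starts when C1q binds antibody or dying cells and its partner proteases cleave C4 and C2, the lectin pathway starts from sugar-binding proteins, and the alternative pathway amplifies C3 cleavage through factors B and D. Cleavage products recruit leukocytes through anaphylatoxin receptors, coat targets for uptake through integrin receptors and can assemble a membrane pore, while regulators on host cells stop each step. Liver makes most plasma complement, and skin cells also make several components locally.

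The libraries kept 9558 cells (normal), 7495 cells (IMQ) and 6092 cells (IMQ+celastrol) after filtering, with medians of 5736.5, 8840 and 10610 unique molecular identifiers (UMIs) per cell. The libraries shared 15 to 26 barcode sequences per pair. The cells formed 50 clusters, built without any complement gene, of which 9 stayed unnamed and the others fell into 14 classes named by marker genes, written as "-like". Fibroblast-like cells numbered 2906, 3490 and 2637, keratinocyte-like cells 3200, 1298 and 1919, and monocyte or macrophage-like cells 124, 548 and 109 across the normal, IMQ and IMQ+celastrol libraries. Levels are CPM, a gene's UMIs per 1000000 UMIs of its class in a library, and since they count 3′ ends they were not compared between genes. Ranges in brackets are exact 95% intervals that cover counting error alone and leave out variation between cells, animals and libraries. A gene is counted as higher or lower in a class where its level differed at least 2-fold with at least 20 UMIs over both libraries, and a class was compared where both libraries held at least 50 of its cells. The IMQ library is shared by the comparison with the normal library and that with the IMQ+celastrol library. The libraries filled different clusters of the same class, so class levels also carry the mix of clusters, and levels within single clusters are given beside them.

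RefSeq promoter sequences, from 250 bases before to 50 bases after the gene start on GRCm38.p6, were available for 19 of the 29 genes. Printed below are those of C3, C1ra and C1s1, which were higher together in fibroblast-like cells of the IMQ library, and of C1qb and C1qc, which were lower together in the class of monocyte or macrophage-like cells. The promoters lay at chr17:57228087-57228386 on the minus strand (C3), chr6:124512371-124512670 on the plus strand (C1ra), chr6:124542310-124542609 on the minus strand (C1s1), chr4:136886151-136886450 on the minus strand (C1qb) and chr4:136892865-136893164 on the minus strand (C1qc). Capitals mark matches, on either strand, to the letters of 4 motifs: C/EBP (TTGCNNAA), NF-kB (GGGNN followed directly by TTTCC), STAT (TTCNNNGAA) and PU.1 (GAGGAAG), which are binding motifs of factors active in inflamed or myeloid cells.
C3: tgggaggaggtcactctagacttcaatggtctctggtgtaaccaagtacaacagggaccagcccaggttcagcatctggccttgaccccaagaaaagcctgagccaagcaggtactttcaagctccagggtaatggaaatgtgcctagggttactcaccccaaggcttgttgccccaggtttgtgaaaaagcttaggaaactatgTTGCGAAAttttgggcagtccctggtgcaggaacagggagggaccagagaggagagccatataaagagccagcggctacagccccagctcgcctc
C1ra: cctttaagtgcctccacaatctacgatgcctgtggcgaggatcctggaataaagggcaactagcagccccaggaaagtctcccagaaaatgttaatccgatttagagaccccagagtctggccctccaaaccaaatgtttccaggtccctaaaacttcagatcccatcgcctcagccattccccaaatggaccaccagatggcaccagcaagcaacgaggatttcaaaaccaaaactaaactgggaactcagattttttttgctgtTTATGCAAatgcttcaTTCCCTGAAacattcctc
C1s1: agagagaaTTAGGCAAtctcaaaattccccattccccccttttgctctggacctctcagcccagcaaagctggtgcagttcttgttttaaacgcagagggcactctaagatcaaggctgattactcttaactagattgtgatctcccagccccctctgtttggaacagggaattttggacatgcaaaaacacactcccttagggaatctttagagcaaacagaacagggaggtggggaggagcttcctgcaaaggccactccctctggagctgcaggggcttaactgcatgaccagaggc
C1qb: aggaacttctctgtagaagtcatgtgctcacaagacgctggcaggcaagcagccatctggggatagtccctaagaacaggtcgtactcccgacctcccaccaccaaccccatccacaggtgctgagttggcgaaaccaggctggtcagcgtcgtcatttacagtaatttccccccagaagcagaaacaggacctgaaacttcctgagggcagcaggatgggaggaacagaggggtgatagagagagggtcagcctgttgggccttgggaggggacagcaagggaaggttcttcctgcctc
C1qc: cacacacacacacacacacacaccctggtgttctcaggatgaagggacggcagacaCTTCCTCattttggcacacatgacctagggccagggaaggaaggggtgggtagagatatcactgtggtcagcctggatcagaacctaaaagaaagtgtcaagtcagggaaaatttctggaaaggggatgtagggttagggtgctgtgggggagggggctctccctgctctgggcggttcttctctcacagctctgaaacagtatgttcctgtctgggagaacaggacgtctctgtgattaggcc
The C3 window held a C/EBP match at position 206, counted from its first base. The C1ra window held a C/EBP match at 267 and a STAT match at 283, and that of C1s1 a C/EBP match at 9. Both C1ra matches lie after the gene start used for the window. They also lie inside the GENCODE span of C1ra given below, which starts earlier, at chr6:124512405. The C1qc window held a PU.1 match at 57, and that of C1qb held none of the motifs in these letters. Among the other windows, matches were found for C3ar1 (NF-kB), C5ar2 (C/EBP), C7 (STAT), Vtn (STAT) and Itgam (PU.1). Of 32851 promoters of the same length, 10.8% held the C/EBP letters, 8.30% the STAT letters, 13.6% the PU.1 letters and 1.63% the NF-kB letters. A match is a description of the letters and was not tied to binding or to any change.

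On the genome, several of these genes sit side by side. C1qa (chr4:136895917-136898803), C1qc (chr4:136889804-136893065) and C1qb (chr4:136880129-136886187) are neighbours on the minus strand of chromosome 4, and C1ra (chr6:124512405-124523443) and C1s1 (chr6:124530345-124542359) on chromosome 6. C4b (chr17:34728380-34743882), Cfb (chr17:34856374-34862518) and C2 (chr17:34862604-34898265) lie together on chromosome 17, with C3 (chr17:57203970-57228136) farther along it, all on GRCm38 with GENCODE vM21 gene spans. C2 and Cfb overlap the counted gene Gm20547 on the same strand, and Itgam the counted gene Gm49368, so their reads can be lost or split there. C4b, C1ra, C1s1, Cd59a and Cd55 have near-identical copies (C4a, C1rb, C1s2, Cd59b and Cd55b), so their counts are uncertain to the extent that reads fit both copies.

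Most complement transcripts of this skin came from stromal and myeloid cells, each with its own set. Of the 25 members counted in the IMQ library with at least 100 UMIs, 14 had their largest share in fibroblast-like cells, 8 in monocyte or macrophage-like, 2 in pericyte or smooth muscle-like and 1 in Langerhans-like cells. The 14 include Cfd through 4 barcodes, described below. In the normal library fibroblast-like cells led for 9 of 20 members, and monocyte or macrophage-like, keratinocyte-like and unnamed cells for 3 each. With celastrol fibroblast-like cells led for 10 of 22, monocyte or macrophage-like cells for 5, and keratinocyte-like and T cell-like cells for 2 each. Fibroblast-like cells held 97.5%, 97.4% and 96.5% of all C3 UMIs across the normal, IMQ and IMQ+celastrol libraries. They also held 89.4%, 96.5% and 95.8% of the UMIs of C4b, which is cleaved by C1s. For Serping1, which encodes the C1 inhibitor, the shares were 91.6%, 89.9% and 86.6%. Fibroblast-like cells were thus the main class of the early proteases, of C3 and of the inhibitor of the first step alike. Shares of C1ra were 87.5%, 93.8% and 91.3%, of C1s1 83.5%, 85.9% and 80.4%, and of Masp1, a protease of the lectin pathway, 89.3%, 95.02% and 93.2%.

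The chains of C1q were elsewhere. Monocyte or macrophage-like cells held 75.9%, 91.9% and 89.7% of C1qb UMIs and 83.4%, 91.6% and 89.3% of C1qc UMIs across the normal, IMQ and IMQ+celastrol libraries. For C1qa the share was lower, at 67.3%, 75.7% and 73.5%, and Langerhans-like cells, the antigen-presenting cells of the epidermis, held another 21.0%, 20.6% and 19.2%. Pericyte or smooth muscle-like cells, which wrap vessels, held 46.5%, 52.6% and 53.7% of the UMIs of Vtn, which encodes vitronectin, a binder of the terminal complex. They also held 61.2% and 66.8% of the UMIs of Cd59a, which blocks the membrane pore, in the IMQ and IMQ+celastrol libraries, while in the normal library keratinocyte-like cells held 41.6% of them.

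**Figure D1:**
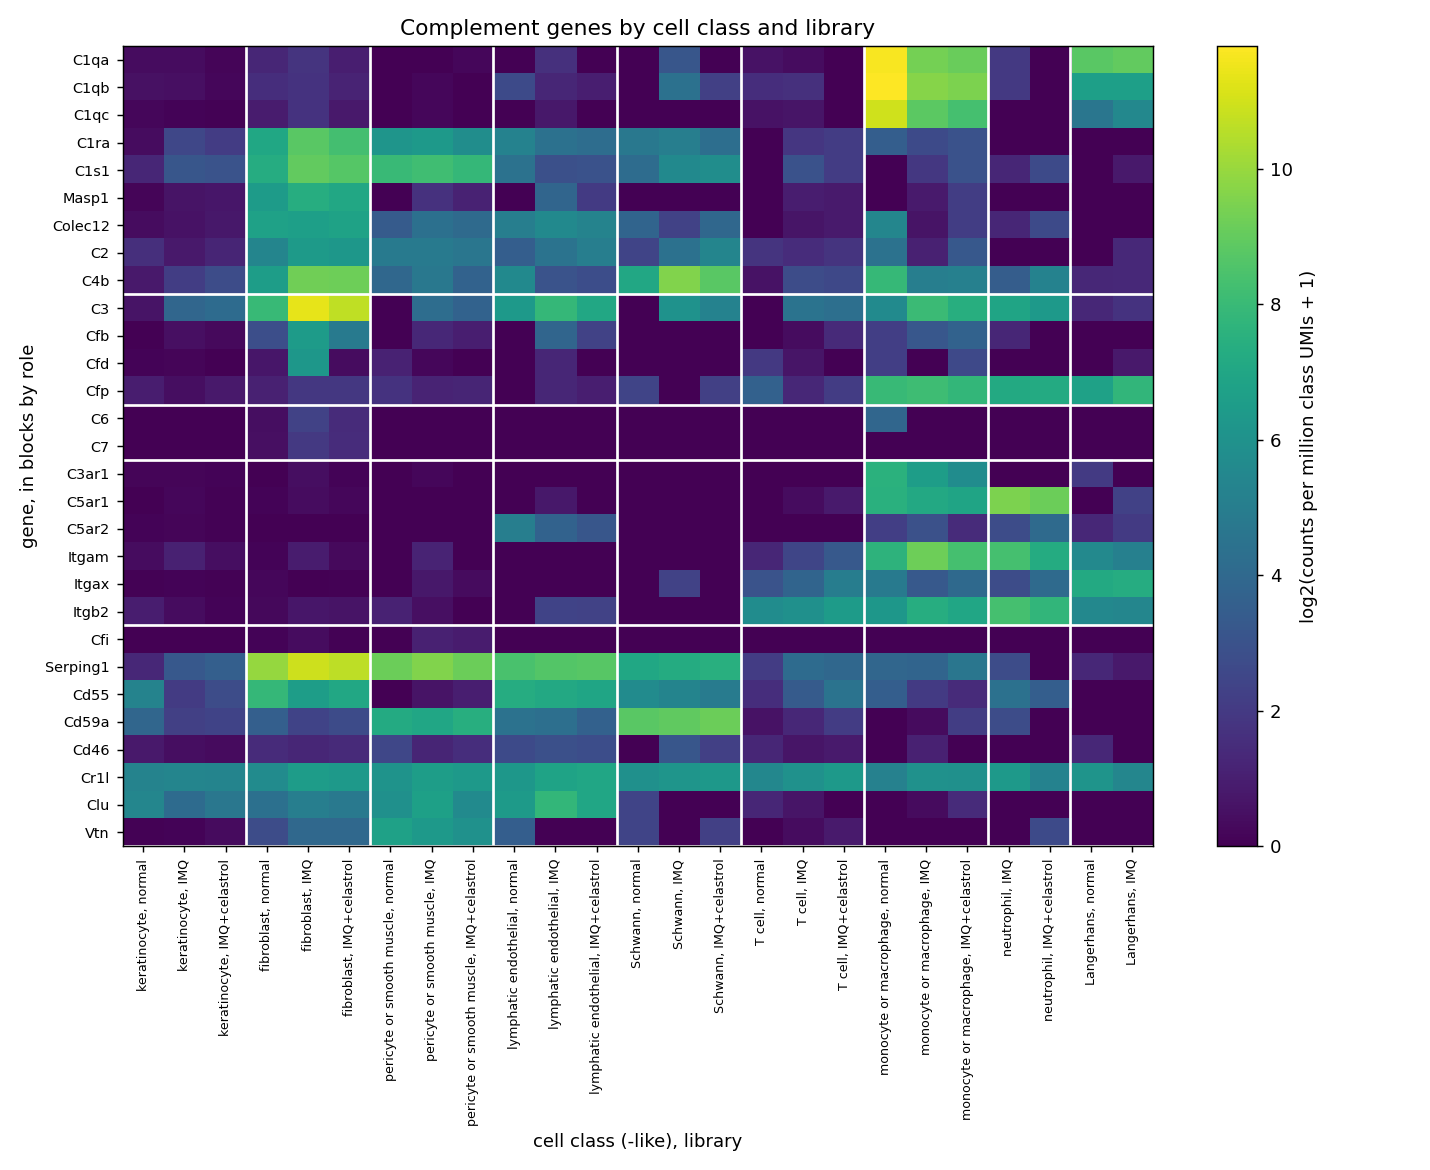
Levels of the 29 complement genes, as log2 of CPM over class UMIs plus 1, with genes in rows in blocks by role and each cell class and library in columns. C3, C1ra and Serping1 are brightest in fibroblast-like columns, the C1q chains in monocyte or macrophage-like and Langerhans-like columns, and C5ar1 in neutrophil-like columns. C1s1 is brightest in the fibroblast-like columns of the IMQ and IMQ+celastrol libraries. In the normal library it is brighter in pericyte or smooth muscle-like than in fibroblast-like cells.

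C3, Cfb of the alternative pathway and the early proteases stood higher in fibroblast-like cells after imiquimod than after glycerin. Of 24 members measured there, 14 were at least 2-fold higher, where 8.14% of all 13925 genes were, and 2 were lower, where 9.81% of all genes were. The members' median log2 ratio was 1.35, against 0.00 over all genes. Of the 9 genes of the classical and lectin start 5 were higher and none lower, of the 4 of C3 and the alternative pathway all 4 were higher, of the 2 terminal genes both, and of 7 measured regulators 1 was higher and 2 lower. Cfd of the alternative pathway was higher only through 4 barcodes, described below. The 14 included C1qc, Itgam and Itgb2, genes of macrophages, at 79, 29 and 21 UMIs in 3490 IMQ cells. The fibroblast-like level of C1qc was 0.842, 2.36 and 0.731 CPM, and that of C1qa 1.40, 2.42 and 0.989 CPM, across the 3 libraries, and the summed level of 12 monocyte or macrophage markers in the fibroblast-like cells was 270.0, 239.9 and 209.8 CPM across the normal, IMQ and IMQ+celastrol libraries. The part of RNA from other cells in these 3 genes was not tested. In the IMQ+celastrol library 9 of 21 measured members were higher than in the normal library and none was lower, where 6.74% and 4.64% of all genes were.

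C3 encodes the protein at which all complement pathways meet. Its level in fibroblast-like cells was 251 CPM in the normal library (3582 UMIs), 2661 in the IMQ library (89100 UMIs) and 1654 in the IMQ+celastrol library (38472 UMIs), lowest in the normal and highest in the IMQ library. The IMQ level was 10.6-fold that of the normal library (10.2 to 10.95), and the IMQ+celastrol level was 1.61-fold lower than the IMQ level (1.59 to 1.63). With cells thinned to 2000 UMIs, 19.3% of normal, 62.5% of IMQ and 52.4% of IMQ+celastrol fibroblast-like cells held a C3 UMI (23.9%, 74.5% and 63.3% unthinned). Cells under 2000 UMIs were left out of all thinned shares, among them 460, 227 and 188 fibroblast-like cells across the libraries. In T cell-like cells, which are not a main source of secreted C3, the thinned shares were 0%, 2.50% and 6.30%, so the fibroblast-like shares stood above that background in each library. The median depth was 4193.5, 8567.5 and 8344 UMIs in fibroblast-like cells and 2763.5, 3203 and 2522 in T cell-like cells. The 4 barcodes richest in C3 held 5.30%, 1.95% and 2.34% of the fibroblast-like C3 UMIs, so the level was spread over many cells.

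Cfb encodes factor B, the protease component of the alternative C3 convertase. Its fibroblast-like level was 6.11 CPM in the normal (87 UMIs), 87.3 in the IMQ (2924 UMIs) and 28.3 in the IMQ+celastrol library (658 UMIs). The IMQ level was 14.3-fold that of the normal library (11.6 to 17.9), and the IMQ+celastrol level was 3.09-fold lower than the IMQ level (2.84 to 3.36). Cfp, which encodes properdin, the stabiliser of that convertase, was at 1.12, 2.78 and 2.80 CPM, on 16, 93 and 65 UMIs. With the same mix of clusters in both libraries its log2 ratio of IMQ over normal was 0.51, under 2-fold. Cfd, which encodes factor D, the activator of factor B and a product of adipocytes, was at 0.632, 74.9 and 0.301 CPM, but 4 barcodes of the IMQ library held 2490 of its 2508 UMIs there, with 199 to 1442 each. Those 4 barcodes also held 122 UMIs of Adipoq and 33 of Plin1, both adipocyte markers, and without them the IMQ level of Cfd was 0.539 CPM. The count of 14 higher members includes Cfd only through these barcodes.

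The early proteases of the classical pathway and C4b were higher in the class after imiquimod. C1ra, for the protease C1r, was at 132, 435 and 312 CPM in the normal, IMQ and IMQ+celastrol fibroblast-like cells. C1s1, for its substrate C1s, was at 159, 509.6 and 419 CPM, and C4b, for the component C4, which C1s cuts, at 93.9, 608 and 594 CPM. All had their lowest level in the normal library and their highest in the IMQ library. The IMQ level was 3.29-fold that of the normal library for C1ra (3.13 to 3.45), 3.20-fold for C1s1 (3.06 to 3.35) and 6.48-fold for C4b (6.13 to 6.85). In the IMQ+celastrol library C1ra was 1.39-fold (1.35 to 1.43) and C1s1 1.22-fold (1.19 to 1.25) lower than in the IMQ library, and C4b 1.02-fold lower (1.002 to 1.05). The C4b level of the IMQ+celastrol library was therefore near that of the IMQ library, unlike those of C3 and Cfb, although the difference between genes was not tested.

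C2, for the other component of the classical C3 convertase, was at 40.1, 86.2 and 74.4 CPM in these fibroblast-like cells, 2.15-fold higher in the IMQ than in the normal library (1.97 to 2.36). Masp1 was at 87.6, 163 and 136 CPM (1.86-fold, 1.75 to 1.98). Colec12, for a membrane-bound scavenger collectin, was at 107, 100.3 and 110.0 CPM and differed by at most 1.10-fold between the libraries. Not every gene of the early steps was therefore higher. The terminal genes C6 and C7, whose products enter the membrane pore, were rare: C6 had 5, 133 and 40 UMIs (0.351, 3.97 and 1.72 CPM) and C7 had 6, 98 and 43 UMIs (0.421, 2.93 and 1.85 CPM). The IMQ level was 11.3-fold the normal one for C6 (4.73 to 35.4) and 6.95-fold for C7 (3.08 to 19.4), and that of C6 was 2.31-fold lower in the IMQ+celastrol library (1.61 to 3.38). With the same mix of clusters in both libraries the log2 ratios of IMQ over normal were 0.82 for C6 and 0.88 for C7, under 2-fold, and C7 was higher in 1 and lower in 1 of 2 clusters.

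Regulators of fibroblast-like cells went different ways. Serping1 was at 971, 1905 and 1569 CPM across the normal, IMQ and IMQ+celastrol libraries, 1.96-fold higher in IMQ than in normal cells (1.93 to 1.998) and 1.21-fold lower with celastrol than in IMQ cells (1.198 to 1.23). Cr1l, for Crry, a mouse membrane protein that limits C3 convertases, was at 51.0, 92.0 and 80.2 CPM, 1.80-fold higher in IMQ cells (1.66 to 1.96). Cd55, for decay-accelerating factor, which takes C3 convertases apart, went the other way, with 232, 93.1 and 135 CPM. Its IMQ level was 2.49-fold lower than the normal one (2.37 to 2.62), and its IMQ+celastrol level was 1.45-fold higher than the IMQ one (1.38 to 1.52). Cd59a was at 11.02, 4.12 and 5.55 CPM, 2.67-fold lower in IMQ than in normal cells (2.11 to 3.38). Vtn was at 5.68, 14.94 and 14.96 CPM (2.63-fold higher in IMQ, 2.07 to 3.37), and Clu, for clusterin, which binds the terminal complex, at 19.6, 31.9 and 26.2 CPM (1.63-fold, 1.43 to 1.87).

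**Figure D2:**
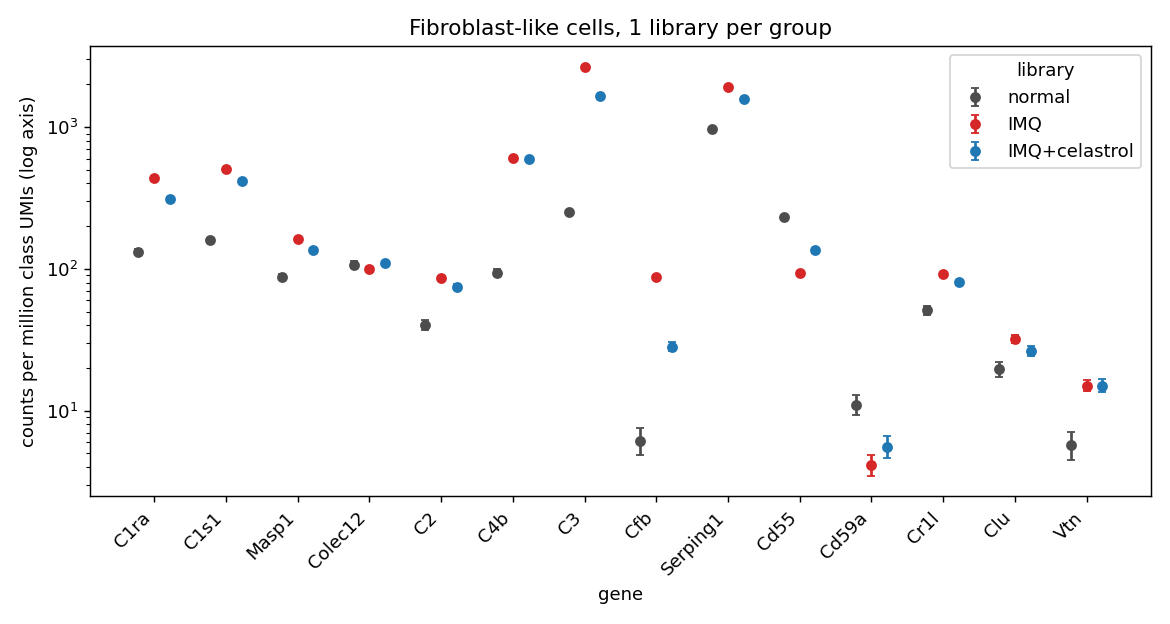
Levels of complement genes in fibroblast-like cells of the normal, IMQ and IMQ+celastrol libraries, in CPM over class UMIs on a log axis, with 1 point per library and exact 95% Poisson intervals of counting error. C3 and Cfb lie at 251 and 6.11 in the normal and at 2661 and 87.3 in the IMQ library, and the normal point of Cd55, at 232, is above both others.

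Fibroblast-like cells of the libraries fell into different clusters, called here by their leading genes. The Mfap4 and Col1a1 cluster held 1390 normal, 57 IMQ and 343 IMQ+celastrol cells, the Tnc and Mmp3 cluster 4, 1079 and 78, and the Saa3 and Cxcl5 cluster 1, 511 and 74. Within single clusters C3 was higher in the IMQ than in the normal library in 7 of 7 clusters with at least 20 cells in both and enough UMIs, 6 of them at least 2-fold, with ratios from 1.13 to 7.14, and in the Tnn cluster, at 0 normal UMIs, at least 4.59-fold. In the Thbs4 and Myoc cluster C3 was at 988, 5571 and 3367 CPM, in the Prg4 and Apod cluster at 1114, 5675 and 3724 CPM, and in the Smpd3 and Clec3b cluster at 3248, 6709 and 3723 CPM. The cluster with most normal cells was the exception in size: in the Mfap4 and Col1a1 cluster C3 was at 219, 248 and 181 CPM, a 1.13-fold difference between IMQ and normal cells (0.913 to 1.38). The 2 clusters made almost wholly of IMQ and IMQ+celastrol cells were not the richest in C3, with 344 and 272 CPM in the Tnc and Mmp3 cluster and 1485 and 1338 CPM in the Saa3 and Cxcl5 cluster.

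**Figure D3:**
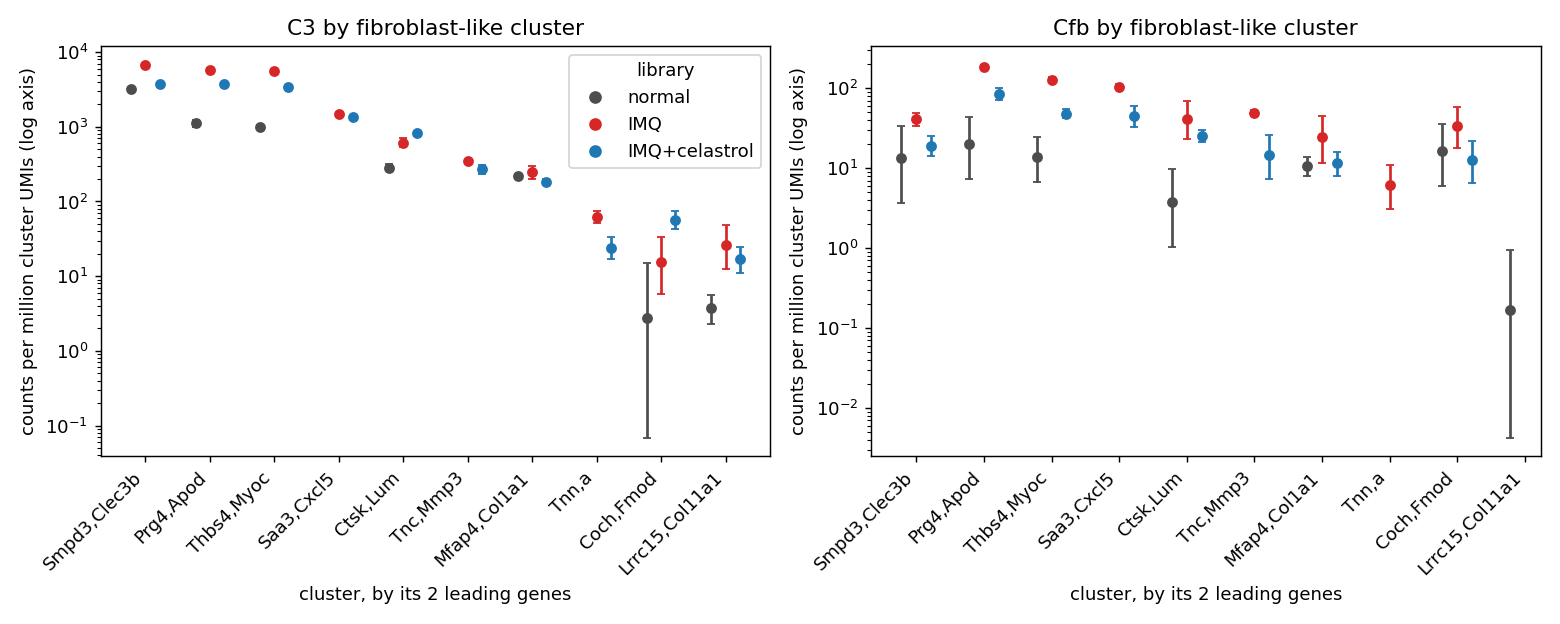
Levels of C3 (left) and Cfb (right) within fibroblast-like clusters, in CPM over cluster UMIs on log axes, with 1 point per library that holds at least 20 cells of the cluster and exact 95% Poisson intervals of counting error. Points at 0 UMIs are not drawn, and the IMQ point of Cfb is above the normal point in the 4 clusters compared, at 128 against 13.6 in the Thbs4 and Myoc cluster.

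With the same mix of clusters in both libraries, over 8 of 10 clusters that held 1900 of 3490 fibroblast-like cells from the IMQ library and 2901 of 2906 from the normal library, the log2 ratio of IMQ over normal was 1.79 for C3 in place of 3.40, 2.53 for Cfb in place of 3.84, 0.89 for C1ra in place of 1.72 and 0.83 for C4b in place of 2.69. On that setting 5 members in place of 14 were at least 2-fold higher and none was 2-fold lower. The share of all genes past 2-fold was not counted on that setting, and the median log2 ratio over all genes was 0.06. Among the 5 were C3, Cfb, Cfd, through the 4 barcodes with Adipoq described above, and C1qc, a gene of macrophages at 79 UMIs in the IMQ cells. Cfb was higher in 4 of 4 clusters (2.31-fold to 9.40-fold), C4b in 6 of 6 (1.29-fold to 5.52-fold), C1ra in 8 of 8 (1.11-fold to 6.83-fold) and Cr1l in 8 of 8 (1.34-fold to 2.38-fold). The directions of these 4 genes were therefore the same in every cluster measured. C1s1 was higher in 7 of 8 clusters and lower in 1 (0.707-fold to 12.4-fold), and its log2 ratio with the same mix was 0.67 in place of 1.68, under 2-fold. Serping1 was higher in 5 and lower in 3 of 8 clusters (0.816-fold to 4.63-fold), and Clu higher in 4 and lower in 2 of 6 (0.172-fold to 3.68-fold), so neither had a single direction over clusters. Cd55 was lower in 7 of 8 clusters, 3.25-fold in the Lrrc15 and Col11a1 cluster (2.14 to 5.21) and 3.14-fold in the Smpd3 and Clec3b cluster (2.59 to 3.80), and higher in the Tnn cluster alone. C2 was higher in 3 and lower in 4 of 7 clusters, and its log2 ratio with the same mix was -0.37 in place of 1.11. Cd59a (0.44 in place of -1.42) and Vtn (-0.94 in place of 1.39) also changed direction with the same mix, so the directions of C2, Cd59a and Vtn in the class depended on the mix of clusters.

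Between the IMQ+celastrol and IMQ libraries no member was at least 2-fold higher in fibroblast-like cells, where 6.12% of all 14119 genes were, and 6 of 24 were lower, where 3.21% of all genes were. The median log2 ratio was -0.28, against 0.15 over all genes. The 6 were Cfb, C6 and Cfd, the last through the 4 barcodes above, and C1qa, C1qc and Itgam, which had 81, 79 and 29 UMIs in the IMQ cells. Cfb was lower in 8 of 8 fibroblast-like clusters, 7 of them at least 2-fold, among them the Thbs4 and Myoc cluster at 47.8 against 128 CPM (2.68-fold, 2.31 to 3.11) and the Tnc and Mmp3 cluster at 14.5 against 49.3 CPM (3.41-fold, 1.89 to 6.88). C1ra was at or below its IMQ level in 10 of 10 clusters, with ratios from 0.27 to 0.999 and 2 of them at least 2-fold lower, and C3 was lower in 8 of 10. For C3, 1 cluster was at least 2-fold lower and 1 at least 2-fold higher, the Coch and Fmod cluster at 57.3 against 15.5 CPM (3.69-fold, 1.59 to 10.5). With the same mix of clusters the log2 ratio was -1.29 for Cfb in place of -1.63, -0.64 for C3 in place of -0.69 and 0.13 for Cd55 in place of 0.54. Cfb was lower in every cluster measured, whereas the class difference of Cd55 was seen in 4 of 10 clusters.

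C3 was also counted in cells outside the fibroblast-like class, at lower levels than there in each library. In keratinocyte-like cells C3 was at 0.538, 14.0 and 16.4 CPM (16, 729 and 958 UMIs), 26.0-fold higher in IMQ than in normal cells (15.9 to 45.7). In T cell-like cells it was at 0, 21.5 and 18.7 CPM, and in pericyte or smooth muscle-like cells at 0, 17.7 and 12.2 CPM. These classes, which differ in type, had like levels, and the C3 level over the whole library was 54.5, 851 and 416 CPM. In the IMQ library the 4 richest barcodes held 30.5% of the C3 UMIs of keratinocyte-like cells, 56.9% of those of T cell-like cells and 61.2% of those of pericyte or smooth muscle-like cells. In the IMQ+celastrol library, at like C3 levels, the 4 richest held 10.96%, 26.1% and 10.7%. The 8 fibroblast markers summed to 153, 180.1 and 268 CPM in keratinocyte-like cells, with none at 0, and to 77.7, 261 and 279 CPM in T cell-like cells. The part of RNA from other cells in these values was not tested.

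Monocyte or macrophage-like cells stood above those classes. Their C3 level was 49.4, 265 and 166 CPM (14, 951 and 96 UMIs), 5.37-fold higher in IMQ than in normal cells (3.18 to 9.85) and 1.60-fold lower in IMQ+celastrol than in IMQ cells (1.29 to 1.99). C3 in the Pf4 and Ccl8 cluster was at 26.3, 151 and 56.5 CPM, and in the Chil3 and Lyz2 cluster at 284 and 196 CPM in the IMQ and IMQ+celastrol libraries. The summed level of the fibroblast markers in this class was 346, 192 and 529 CPM across the normal, IMQ and IMQ+celastrol libraries. The part of RNA from other cells in its C3 was not tested. Neutrophil-like cells held 118 CPM of C3 in the IMQ library, against 79.0 CPM with celastrol. Lymphatic endothelial-like cells held 79.6, 233 and 135 CPM of C3, 2.93-fold higher in IMQ than in normal cells (1.75 to 5.29), where the fibroblast markers summed to 2149, 497 and 612 CPM. Langerhans-like and blood endothelial-like cells of the IMQ library held 2.31 and 3.37 CPM.

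C1q is the recognition protein of the classical pathway, built from A, B and C chains, and tissue macrophages are a known source. In monocyte or macrophage-like cells C1qa was at 3328, 657 and 557 CPM, C1qb at 3596, 815 and 711 CPM and C1qc at 2004, 463 and 317 CPM across the normal, IMQ and IMQ+celastrol libraries. All 3 chains had their highest level in the normal library. Of 16 members measured in this class, 4 were higher in the IMQ library, where 13.1% of all genes were, and 5 lower, where 9.68% were: C1qa was 5.06-fold lower (4.69 to 5.46), C1qb 4.41-fold (4.11 to 4.74) and C1qc 4.33-fold (3.93 to 4.77), with C4b and Itgax beside them. The 4 higher members were C3, Cfb, Itgam and Itgb2. In the IMQ+celastrol library 1 of 16, C5ar2 on 24 and 1 UMIs, was lower than in the IMQ library, where 6.05% of all genes were, and none was higher, where 4.54% were. This class was made of 2 clusters that the libraries filled differently. The Pf4 and Ccl8 cluster held 106 of 124 cells in the normal library, 71 of 548 in the IMQ library and 28 of 109 with celastrol, and the Chil3 and Lyz2 cluster, with the monocyte marker Ly6c2 among its leading genes, held 18, 477 and 81.

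Within the Pf4 and Ccl8 cluster the C1q chains did not differ in this way. C1qa was at 4134 CPM in the normal and 4044 in the IMQ library (0.978-fold, 0.905 to 1.06), C1qb at 4467 and 4821 CPM, and C1qc at 2490.1 and 2851 CPM. With the same mix of clusters, which rests on this cluster alone, the log2 ratio of C1qa was -0.03 in place of -2.34, and those of C1qb (0.11) and C1qc (0.20) changed sign. In the IMQ+celastrol library the same cluster held lower levels of all 3 chains, with C1qa at 2591, C1qb at 3285 and C1qc at 1477 CPM, 1.56-fold (1.39 to 1.76), 1.47-fold and 1.93-fold lower than in the IMQ library, from 28 cells. Over the whole class of the IMQ+celastrol library, 4 barcodes held 54.0%, 46.0% and 56.3% of the C1qa, C1qb and C1qc UMIs. In the IMQ library 4 barcodes held 23.6%, 21.9% and 23.8%. The Chil3 and Lyz2 cluster held 80.2, 132 and 55.8 CPM of C1qa, C1qb and C1qc in the IMQ library and 2.20, 8.81 and 0 CPM in the IMQ+celastrol library. In the normal library the unnamed clusters, which entered no class, held 411 UMIs of the C1q chains, beside 2530 in this class. Over whole libraries C1qa was at 20.8, 28.98 and 4.57 CPM, highest in the IMQ library, which had the most monocyte or macrophage-like cells.

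The share of monocyte or macrophage-like cells with a C1qa UMI, thinned to 2000 UMIs, was 71.7%, 12.3% and 18.6% (75.0%, 14.1% and 17.4% unthinned). The thinned shares rest on 60 of 124 normal, 447 of 548 IMQ and 86 of 109 IMQ+celastrol cells, since shallower cells were left out. In keratinocyte-like cells, which should lack C1qa, the thinned shares were 0.0322%, 0.0782% and 0%. The median depth was 1822.5, 6853.5 and 4751 UMIs in monocyte or macrophage-like cells and 8267.5, 37755 and 27043 in keratinocyte-like cells. Langerhans-like cells held C1qa at 437 CPM in the normal and 494 in the IMQ library, a 1.13-fold difference (0.985 to 1.30), and 43.4% and 53.2% of them held a UMI after thinning. C1qa, C1qb and C1qc made up 78.0%, 17.7% and 4.23% of their C1q UMIs in the normal library and 77.3%, 15.6% and 7.09% in the IMQ library. In monocyte or macrophage-like cells the same shares were 37.3%, 40.3% and 22.5% in the normal and 34.0%, 42.1% and 23.9% in the IMQ library. The chains' proportions therefore differed between these classes in both libraries, with 295, 67 and 16 UMIs of C1qa, C1qb and C1qc in the normal Langerhans-like cells.

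**Figure D4:**
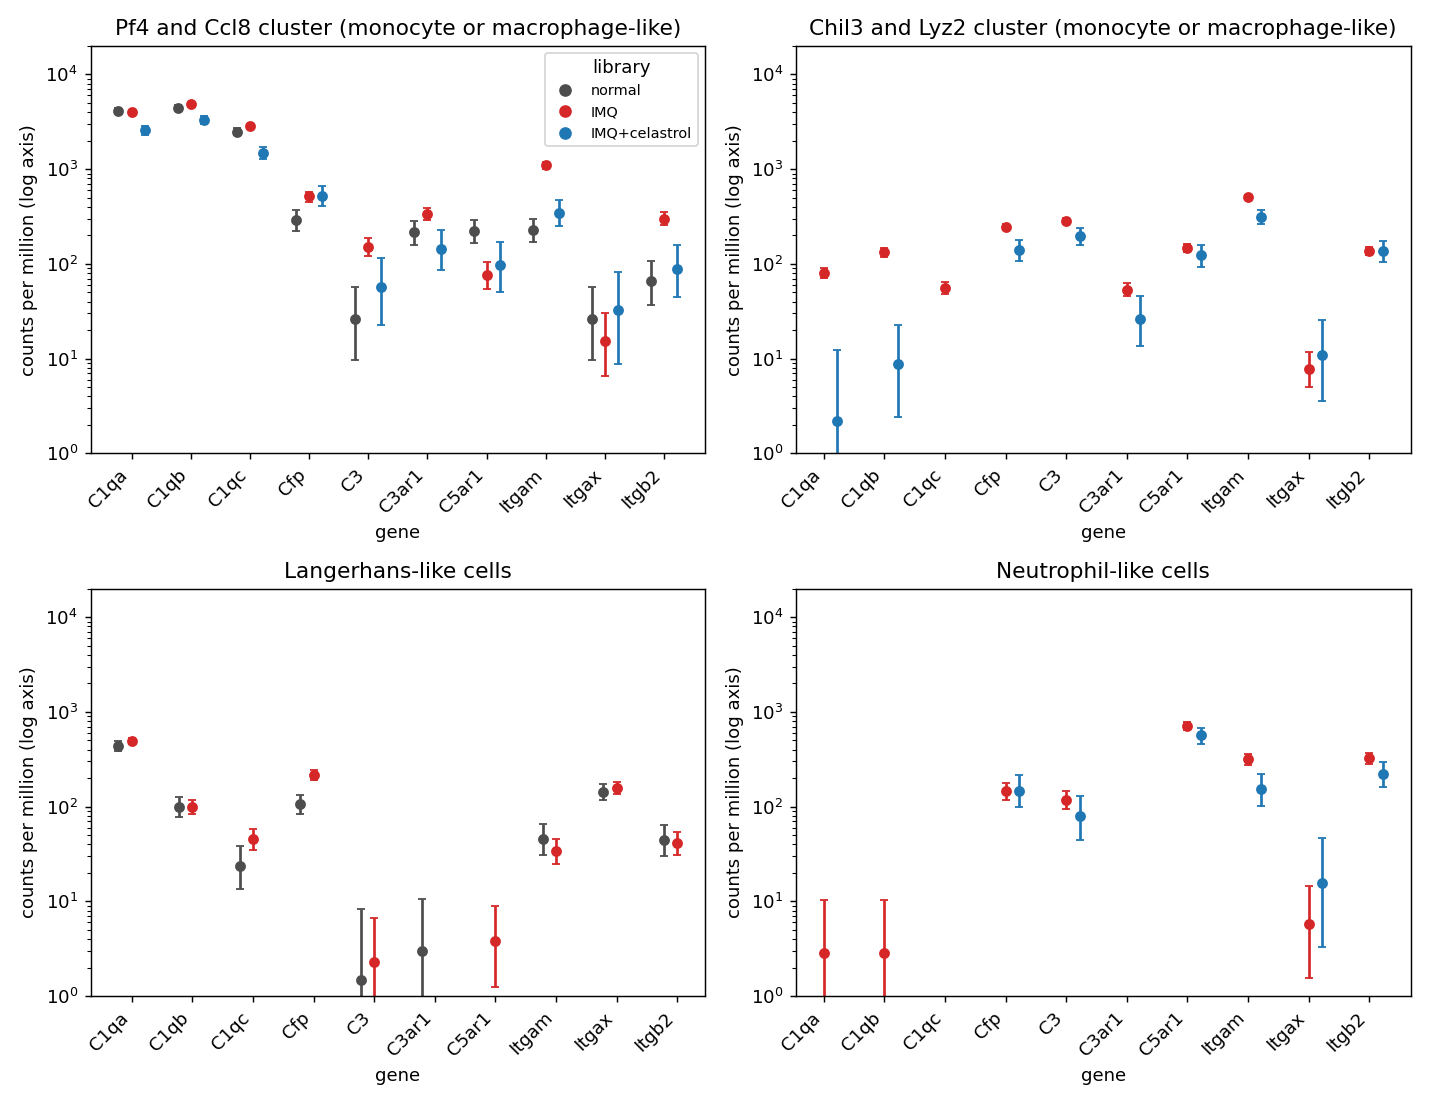
Levels of C1q chains, C3, Cfp and complement receptors in both monocyte or macrophage-like clusters, in Langerhans-like and in neutrophil-like cells, in CPM over their UMIs on log axes, with 1 point per library that holds at least 20 of the cells and exact 95% Poisson intervals of counting error. Points at 0 UMIs are not drawn. In the Pf4 and Ccl8 cluster the normal and IMQ points of C1qa nearly coincide at 4134 and 4044, while Itgam is at 228 and 1093.

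The anaphylatoxin receptors C5ar1 and C3ar1 were counted mainly in myeloid cells. C5ar1, the receptor of C5a that draws neutrophils, had 1030 UMIs in the IMQ library, 48.1% of them in monocyte or macrophage-like and 48.0% in neutrophil-like cells. Its neutrophil-like level was 709 CPM in the IMQ library and 564 with celastrol (1.26-fold lower, 1.02 to 1.56), and neutrophil-like cells, of which the normal library held 7, numbered 141 and 67. In monocyte or macrophage-like cells C5ar1 was at 180.0, 138 and 118 CPM, and in the Pf4 and Ccl8 cluster at 224, 76.6 and 96.9 CPM, 2.92-fold lower in IMQ than in normal cells (1.89 to 4.53). C3ar1, the receptor of C3a, was at 183, 94.8 and 51.9 CPM in the class, and at 215, 337 and 145 CPM in the Pf4 and Ccl8 cluster. In that cluster C3ar1 was thus 1.57-fold higher in IMQ than in normal cells (1.14 to 2.20), where the class level was 1.94-fold lower (1.42 to 2.60). Over whole libraries C5ar1 had 75, 1030 and 190 UMIs and C3ar1 84, 378 and 40. C5ar2, another C5a receptor, had 12, 57 and 16 UMIs, too few to compare outside monocyte or macrophage-like and lymphatic endothelial-like cells. Of the 57 in the IMQ library, 24 were in monocyte or macrophage-like cells.

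Itgam and Itgb2 encode the chains of complement receptor 3, an integrin that binds cleaved C3. In monocyte or macrophage-like cells Itgam was at 201, 592 and 322 CPM and Itgb2 at 74.1, 162 and 126 CPM. Itgam was 2.94-fold (2.26 to 3.90) and Itgb2 2.19-fold (1.42 to 3.56) higher in IMQ than in normal cells. The difference was larger within the Pf4 and Ccl8 cluster, where Itgam was at 228, 1093 and 347 CPM and Itgb2 at 65.8, 301 and 88.8 CPM. That cluster held only 106, 71 and 28 cells across the normal, IMQ and IMQ+celastrol libraries. There Itgam was 4.796-fold higher in IMQ than in normal cells (3.61 to 6.50) and 3.15-fold lower with celastrol than in IMQ cells (2.31 to 4.40), and Itgb2 was 4.57-fold higher (2.69 to 8.36) and 3.39-fold lower (1.84 to 6.92). In neutrophil-like cells Itgam was at 316 and 153 CPM in the IMQ and IMQ+celastrol libraries, 2.07-fold lower with celastrol (1.40 to 3.16), and Itgb2 at 324 and 221 CPM. In neutrophil-like cells 2 of 6 measured members, Itgam and Cr1l, were lower, where 9.57% of all genes were, and none higher, where 6.56% were. Itgb2 in T cell-like cells, where it also pairs with other integrin chains, was at 51.9, 60.1 and 87.6 CPM.

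Itgax, for the partner chain in complement receptor 4, had its highest level in Langerhans-like cells, at 144 CPM in the normal and 158 in the IMQ library. In monocyte or macrophage-like cells Itgax was at 28.2, 8.92 and 15.6 CPM on 8, 32 and 9 UMIs. Cfp, which leukocytes make, was at 247, 283 and 223 CPM in monocyte or macrophage-like cells and at 145 and 148 CPM in neutrophil-like cells of the IMQ and IMQ+celastrol libraries. The IMQ+celastrol library held 13 Langerhans-like cells and was not compared there. In Langerhans-like cells Cfp was at 107 CPM in the normal and 218 in the IMQ library (2.04-fold, 1.57 to 2.68). It was the 1 of 8 measured members that was higher there, where 9.37% of all genes were, and none was lower, where 6.3% were. C4b in monocyte or macrophage-like cells went against its direction in fibroblast-like cells: it was at 240.0, 31.8 and 34.6 CPM, 7.55-fold lower in IMQ than in normal cells (5.51 to 10.3), and within the Pf4 and Ccl8 cluster at 298, 88.1 and 88.8 CPM, 3.38-fold lower (2.29 to 5.03).

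In keratinocyte-like cells the regulators Cd55, Cd59a and Clu were lower in the IMQ than in the normal library. Of 19 members measured, 8 were at least 2-fold higher in the IMQ library, where 7.83% of all 13862 genes were, and 7 lower, where 23.3% were. The members' median log2 ratio was 0.13 against -0.31 over all genes, and with median-of-ratios scaling the median of all genes was -0.05. Of 6 measured regulators 1 was higher and 4 lower. Cd55 was at 37.4, 3.20 and 5.67 CPM across the normal, IMQ and IMQ+celastrol libraries, 11.7-fold lower in IMQ than in normal cells (9.92 to 13.8). Cd59a was at 14.2, 3.74 and 4.11 CPM (3.79-fold lower, 3.19 to 4.51) and Clu at 41.7, 16.3 and 24.8 CPM (2.55-fold lower, 2.34 to 2.79). The keratinocyte-like libraries shared few clusters, since only 2 of 11 held at least 20 normal and 20 IMQ cells, with 111 of 1298 cells from the IMQ library and 1001 of 3200 from the normal library. In those, Cd55 was at 5.48 and 4.66 CPM in the Aldh3a1 and Vsnl1 cluster and at 2.76 and 4.44 CPM in the Gnmt and Tbx1 cluster, so its class difference was not seen there, and its log2 ratio with the same mix was 0.39 in place of -3.55. Those of Cd59a (-1.23) and Clu (-2.07) kept their direction.

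The 8 higher members of keratinocyte-like cells were C3, C1ra, C1s1, C4b, Serping1, Masp1, Cfb and Itgam. C1ra was at 0.303, 4.73 and 3.32 CPM, C1s1 at 1.41, 8.06 and 7.13 CPM, C4b at 0.740, 3.47 and 5.76 CPM and Serping1 at 1.48, 8.66 and 10.8 CPM. C1ra, C1s1, C4b and Serping1 are far more abundant in fibroblast-like cells. Their keratinocyte-like levels lay beside a fibroblast marker sum of 153, 180.1 and 268 CPM, as for C3 above. Serping1 UMIs after thinning were in 0.355%, 1.95% and 2.20% of keratinocyte-like cells and in 0.355%, 0.666% and 0.840% of T cell-like cells. C2 was at 2.02, 0.747 and 1.37 CPM, 2.70-fold lower in IMQ than in normal cells (1.77 to 4.15), and its log2 ratio with the same mix was 0.70 in place of -1.43. Cr1l, the mouse regulator Crry, was at 37.3, 41.0 and 39.5 CPM and differed by at most 1.10-fold. Between IMQ+celastrol and IMQ keratinocyte-like cells 2 of 20 members were higher, where 5.06% of all genes were, and 4 lower, where 3.41% were, and each of these 6 had at most 57 UMIs in either library. Of the more abundant members Cd55 was 1.77-fold (1.47 to 2.15) and Clu 1.52-fold (1.39 to 1.65) higher in the IMQ+celastrol than in the IMQ cells, and neither reached 2-fold.

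Pericyte or smooth muscle-like cells held Serping1 at 573, 757 and 565 CPM, C1s1 at 257, 290.5 and 233 CPM, Cd59a at 146, 125 and 167 CPM and Vtn at 109, 80.3 and 62.9 CPM. None of these 4 genes differed by 2-fold. Of 11 members measured between the IMQ and normal libraries 2, C3 and Colec12, were higher, where 9.16% of all genes were, and none lower, where 6.51% were. Colec12 was at 9.45, 19.3 and 15.8 CPM, and the fibroblast markers summed to 1044, 4197 and 3758.5 CPM in these cells, a part that was not tested. Of 13 measured between the IMQ+celastrol and IMQ libraries 2 were lower, where 1.86% of all genes were, and none higher, where 3.46% were. The 2 were C4b, at 14.2, 25.2 and 12.2 CPM, and Clu, at 60.2, 104 and 49.98 CPM, which was 2.08-fold lower with celastrol than in IMQ cells (1.83 to 2.37).

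In lymphatic endothelial-like cells 3 of 10 members, C2, C3 and Clu, were higher in the IMQ library, where 12.5% of all genes were, and 1, C5ar2, was lower, where 4.27% were. Clu was at 84.9, 223 and 125 CPM, 2.63-fold higher in IMQ than in normal cells (1.59 to 4.65), with 41.1% of the 316 IMQ UMIs in 4 barcodes. Cd55 was at 159, 139.7 and 123 CPM and Serping1 at 339.6, 402 and 423 CPM. Neither differed by 2-fold. Between IMQ+celastrol and IMQ lymphatic endothelial-like cells 2 of 12 were lower, where 2.9% of all genes were, and none was higher, where 2.61% were. The 2 were Masp1 and Cfb, at 19 UMIs each in the IMQ library.

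Schwann-like cells, the glia of skin nerves, had the highest Cd59a level, at 438, 489 and 579 CPM. Their C4b was at 133, 772 and 439.5 CPM, 5.80-fold higher in IMQ than in normal cells (3.96 to 8.77) and 1.76-fold lower with celastrol than in IMQ cells (1.39 to 2.22). C4b was the 1 of 5 measured members that was higher in the IMQ library, where 7.79% of all genes were, and none was lower, where 6.54% were. None of 6 members differed by 2-fold between the IMQ+celastrol and IMQ libraries, where 3.42% of all genes were higher and 5.57% lower. The 4 barcodes richest in C4b held 32.0% of its 194 UMIs in the IMQ library, whereas for Serping1 4 barcodes held 86.8% of 38 UMIs. The 8 fibroblast markers summed to 6834, 1794 and 2190.4 CPM in Schwann-like cells across the normal, IMQ and IMQ+celastrol libraries. The part of RNA from other cells in their C4b was not tested.

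In T cell-like cells 5 of 9 members were higher in the IMQ library, where 8.27% of all genes were, and 1, Cfp, was lower, where 6.57% were, with 72.0% of the 25 normal UMIs of Cfp in 4 barcodes. The 5 were C1s1, C4b, C3, Serping1 and Cd55, and C1s1, C3 and Serping1 had 82.6%, 56.9% and 80.0% of their 23, 72 and 55 IMQ UMIs in 4 barcodes, while C4b had 19 IMQ UMIs. Cd55, which T cells can carry on their membrane, had 4, 32 and 27 UMIs, with 28.1% of the 32 in 4 barcodes. Between IMQ+celastrol and IMQ T cell-like cells 2 of 9, Itgax and Cd55, were higher, where 2.8% of all genes were, and 1, C1s1, was lower, where 3.56% were. Each had at most 44 UMIs in either library. Of the compared classes Cr1l, for Crry, had its highest level in blood endothelial-like cells, at 122 CPM in the normal and 135 in the IMQ library, a 1.10-fold difference (0.829 to 1.47). Blood endothelial-like cells were compared between 187 normal and 50 IMQ cells, and there Clu was at 466 and 210.3 CPM, 2.22-fold lower (1.85 to 2.67). It was 1 of 2 lower among 6 measured members, with C1ra, where 8.4% of all genes were lower, and none was higher, where 7.38% were. In sebocyte-like cells 1 of 4 members, C2, was lower, where 9.92% of all genes were, and none was higher, where 4.73% were.

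Members with few UMIs are given by their counts. Cfi, for the protease that inactivates C3b and C4b, had 1, 18 and 7 UMIs in the whole normal, IMQ and IMQ+celastrol libraries. Cd46, whose product is mainly a protein of sperm in mice, had 87, 98 and 83 UMIs, and its fibroblast-like levels were 1.75, 1.43 and 1.63 CPM.

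Another 26 complement genes with a row were looked at beside the members. In fibroblast-like cells 10 of them were measured between IMQ and normal, with 3 higher and 4 lower, where 8.14% and 9.81% of all genes were, and a median log2 ratio of -0.40. Between IMQ+celastrol and IMQ 8 were measured, with 1 higher and 4 lower, where 6.12% and 3.21% of all genes were. Csmd1, for a membrane protein that limits complement, was at 0.772, 4.39 and 1.25 CPM in fibroblast-like cells, and C1s2, the near copy of C1s1, at 0.351, 2.72 and 0.860 CPM. Cd59b, the near copy of Cd59a, was at 4.56, 1.02 and 3.01 CPM there, in the same order of libraries as Cd59a and Cd55. C1rl was at 5.61, 7.02 and 8.30 CPM, and C1qbp, a mitochondrial protein that can bind C1q, at 77.1, 83.1 and 94.3 CPM. In keratinocyte-like cells C1qbp was at 187, 253 and 184 CPM and C9, of the membrane pore, at 0.706, 0.632 and 0.805 CPM. Colec11, a soluble lectin, was at 54.3, 44.5 and 33.5 CPM in pericyte or smooth muscle-like cells. Cd93, an endothelial and myeloid membrane protein, was at 583 and 601 CPM in normal and IMQ blood endothelial-like cells and at 60.0, 123 and 79.6 CPM in monocyte or macrophage-like cells. C8a, C8b, Mbl1, Mbl2 and Vsig4 had no UMI in any library.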

How the data were processed

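Single-cell 3′ transcript counts of 3 dorsal skin libraries, 1 per treatment in the labels, were analysed. The deposited values were UMI counts per gene and barcode, which the authors obtained from Cell Ranger 4.0.0 according to the text at the top of each file, that is per the file headers. Genome names mm10 and GRCm38 come from the submitters' processing notes, and alignment options are not given in the sources used here. Depth was 77880943, 119831835 and 103267738 UMIs over 10565, 8236 and 6777 barcodes for normal, IMQ and IMQ+celastrol, respectively. The lowest barcode held 502, 501 and 500 UMIs, which leaves no empty droplets from which free RNA could be measured.

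Cells with fewer than 300 genes or over 20% mitochondrial UMIs were left out. Doublets were scored with Scrublet (scanpy 1.11.5), and the top scores were left out at 0.8% per 1000 cells in every library (870, 513 and 330 cells), since Scrublet itself marked 213, 1 and 88. Counts scaled to 10000 per cell, 2000 variable genes without any complement gene, 30 principal components and 15 neighbours were clustered without integration by the Leiden method at resolution 1 (leidenalg 0.10.2), and clusters of at least 100 cells whose leading genes went against their name were split at resolution 0.5. A cluster was named from 24 marker lists where a class scored at least 0.25 and 1.2 times the next, with at least 3 markers in 25% of its cells. The limit of 1.2 was waived where at least 3 of the 10 leading genes were markers of the class and none of another. This applied to the sebocyte-like cluster, at 0.733 against 0.682 for basal keratinocytes. Clusters stayed unnamed where more leading genes marked another class, or where they were shallow without a leading marker of their own. Basal, differentiated, outer root sheath and upper follicle keratinocyte lists were merged, and these thresholds set, after the clusters were seen. Unnamed clusters held 425, 199 and 153 cells and entered no class. Names were rebuilt here and may differ from those of the study.

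UMIs were summed per class and library and divided by the class total. Intervals are exact 95% Poisson intervals for levels, conditional binomial intervals for ratios and Clopper-Pearson intervals for shares, and cover counting error alone. A library at 0 UMIs was set at a floor of 3. No test was made, since every group had 1 library. Members were described in compared classes where they had at least 100 UMIs over the 3 libraries and either their highest mean level or a 2-fold ratio, and other members by counts. The members and lists were chosen with earlier results of these data known. The scripts were checked on simulated data. Python 3.11.15, numpy 2.4.6, scipy 1.17.1, pandas 2.3.3, scikit-learn 1.9.0, python-igraph 0.11.9 and matplotlib 3.10.9 were used. Alternatives covered doublets, resolution, naming, scaling, cluster mix, added CPM, the UMI minimum and the fold. Levels within single clusters, and Cfd without cells holding at least 5 Adipoq UMIs, were chosen after seeing the data. A few other complement genes are not reported here.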

Additional observations from a re-analysis of the deposited data

Results flagged for a closer look

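Genes whose class levels went at least 2-fold in opposite directions between the IMQ and normal libraries were taken up here. With 1 library per group none of these differences between classes was tested.

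C4b, of the classical C3 convertase, had a log2 ratio of IMQ over normal of 2.69 in fibroblast-like, 2.23 in keratinocyte-like and 2.54 in Schwann-like cells, against -2.92 in monocyte or macrophage-like cells. Clu, for clusterin, had 1.39 in lymphatic endothelial-like cells, against -1.35 in keratinocyte-like and -1.15 in blood endothelial-like cells.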

How the results depend on the processing

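No paired analysis was possible because each group has 1 library, and for the same reason no replicate could be left out. Of 59 ratios of members and other named complement genes that were at least 2-fold, all kept their direction under each setting applied to all of them, except the same cluster mix (49 of 58). Added CPM cannot change a direction. Other scaling moved all genes of a class by the same factor, too small here to turn a 2-fold ratio. These settings therefore did not test the directions. They were still 2-fold in 50 with no doublets left out, 55 with Scrublet's calls (a fixed rate in the IMQ library), 57 of 58 with libraries clustered separately, 48 as a mean over cells, 34 of 58 with the same mix, 47 with 1 CPM added and 25 with 10 CPM added.

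The log2 ratio of IMQ over normal changed sign with the same cluster mix for C2 (-0.37), Cd59a (0.44) and Vtn (-0.94) in fibroblast-like cells, C2 (0.70) and Cd55 (0.39) in keratinocyte-like cells, Csmd1 in pericyte or smooth muscle-like cells (-0.19), and C1qb (0.11), C1qc (0.20) and Cd93 (-0.43) in monocyte or macrophage-like cells. It was -0.23 for Cfd in fibroblast-like cells without the cells holding at least 5 Adipoq UMIs.

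Counts of members at least 2-fold higher or lower were within 1.5 times the reported count in 132 of 178 cases. The share of all genes was not counted under the alternatives, so the counts below have no background beside them. In fibroblast-like cells IMQ over normal (14 higher, 2 lower), they were 5 and 0 with the same mix, 6 and 1 with 10 CPM added, and 1 lower as a mean over cells, and the 6 lower of IMQ+celastrol over IMQ were 2 with 1 CPM and 2 with 10 CPM added. In keratinocyte-like cells IMQ over normal (8 and 7), they were 4 and 2 with the same mix, 5 and 3 with 1 CPM added, 1 and 1 with 10 CPM added, 5 and 3 with at least 100 UMIs, and 3 lower with no doublets left out. For IMQ+celastrol over IMQ there (2 and 4), the higher were 0 with no doublets left out, with 1 CPM added, with 10 CPM added and with at least 100 UMIs, 1 with libraries clustered separately and without genes over 1%, 4 with Scrublet's calls and 6 at 1.5-fold, and the lower were 0 with 1 CPM added, 10 CPM added and 100 UMIs, and 7 with at least 1 UMI. In monocyte or macrophage-like cells IMQ over normal (4 and 5), they were 8 and 1 with the highest score, and the lower were 8 as a mean over cells, 2 with the same mix and 11 with at least 1 UMI. For IMQ+celastrol over IMQ there (0 and 1), the higher were 1 with no doublets left out, Scrublet's calls, a 10% mitochondrial limit and the highest score, 3 as a mean over cells, 7 with at least 1 UMI and 2 at 1.5-fold, and the lower were 7 with no doublets left out, 0 with Scrublet's calls, 3 with the same mix, 0 with 10 CPM added, 0 with at least 100 UMIs and 4 at 1.5-fold. The cause of these shifts was not tested. Depth limited members with few UMIs, such as C5ar2, Cfi, C6 and C7, and classes with few cells.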
